A study of Mus musculus with 12 samples.

Results

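Serine synthesis and the ATF4 stress response were followed through 10 genes, *Atf4*, *Atf3*, *Ddit3*, *Trib3*, *Chac1*, *Asns*, *Aldh1l2*, *Phgdh*, *Psat1* and *Psph*. They were taken by gene symbol from a table of 24532 genes, and all 10 passed the filter on low counts that left 14038 genes for testing. RNA was sequenced from the whole livers of 12 male C57BL/6 mice aged 10 to 12 weeks when feeding began, in 4 groups of 3. All mice carried *Ahr* fl/fl alleles, with loxP sites around exon 2 of the gene of the aryl hydrocarbon receptor (AhR), a ligand-activated transcription factor. The mice labelled Ahr HKO also carried *Alb-Cre*, whose albumin promoter drives the deletion in hepatocytes, and the mice labelled WT were littermates without Cre. The paper reports the deletion as specific to hepatocytes. Each genotype received for 5 weeks either an isocaloric liquid control diet (con) or the Lieber-DeCarli diet, a liquid diet with 5% ethanol by volume and 36% of its calories from ethanol (EtOH). The study asked what AhR in hepatocytes does in the alcohol-fed liver.

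As background, ATF4 is a bZIP transcription factor at the end of the integrated stress response. Kinases that sense amino acid shortage, misfolded protein in the endoplasmic reticulum (ER), missing heme or double-stranded RNA phosphorylate the initiation factor eIF2alpha, which lowers most protein synthesis but raises the translation of *Atf4* mRNA. ATF4 then activates further factors (*Atf3*, *Ddit3*), a pseudokinase that feeds back on it (*Trib3*) and enzymes that make amino acids, including the enzymes of serine synthesis. Serine is made from the glycolytic intermediate 3-phosphoglycerate by PHGDH, PSAT1 and PSPH in that order, and feeds glycine and folate one-carbon metabolism. The mRNA level of *Atf4* is thus not a measure of ATF4 protein, which was not measured here.

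Promoter sequences of these genes are shown first, because they were searched for the short elements through which ATF4 and AhR are known to bind DNA. RefSeq windows (GRCm38.p6) from 250 bases before to 50 after each gene's start were matched for 9 of the 10 genes, in 10 windows since *Psat1* has 2 starts, and *Aldh1l2* had no entry. The letters TGATGNAA, the C/EBP-ATF response element to which ATF4 binds with a C/EBP partner, were searched on both strands. They stood in the windows of *Atf3*, *Chac1*, *Asns* and *Trib3*, that is in 4 of 9 genes, against 3.97% of all 32851 windows of this length. The windows of *Atf4*, *Ddit3* and the serine synthesis genes *Phgdh*, *Psat1* and *Psph* had no match. The element began 110 bases before the start in *Atf3*, 193 before it in *Chac1* and 23 before it in *Asns*, and 15 bases after it in *Trib3*. For the first 3, 60 bases around the element are printed from 5′ to 3′ on the gene's own strand, with the element in capitals. In *Atf3* and *Chac1* it lies on the opposite strand, so that its reverse complement is read. The *Psat1* line shows the GCGTG core of the AhR response element in capitals. *Psat1* was picked for its difference between genotypes in the response to ethanol, the largest of the 10 genes. The core was in the windows of all 9 matched genes, so it does not set *Psat1* apart. The *Asns* line also holds it, on the opposite strand from 57 and 8 bases before the start, left in lower case. Whether AhR acts on these genes was not tested. No match of one element overlapped a match of another in these windows.
*Atf3*, chr1:191183410-191183469, minus strand: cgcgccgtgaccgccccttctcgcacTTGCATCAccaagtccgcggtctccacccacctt
*Chac1*, chr2:119351023-119351082, plus strand: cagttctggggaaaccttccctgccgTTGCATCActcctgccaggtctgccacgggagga
*Asns*, chr6:7693210-7693269, minus strand: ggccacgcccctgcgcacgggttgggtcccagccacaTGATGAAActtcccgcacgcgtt
*Psat1*, chr19:15925070-15925129, minus strand: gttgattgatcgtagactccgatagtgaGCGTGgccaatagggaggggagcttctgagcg

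GCGTG on either strand was in the windows of 9 of 9 matched genes, against 32.4% of all windows. The 10 windows of these genes had a median GC content of 61%, against 52.7% over all windows, and no allowance was made for this difference. The cyclic AMP response element TGACGTCA was in 0 of 9, against 1.79% of all windows. These are matches of letters in a window, not measured binding sites.

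The libraries held 46306518 to 74336255 counts on genes. Levels are given as CPM, the count of a gene relative to all counts of its library, scaled to the library total and the TMM factor, and a count of 3, taken as the floor of detection, was worth 0.0425 to 0.0676 CPM. Summed hepatocyte markers (*Alb*, *Apoa1*, *Ttr*, *Hnf4a*, *Tat*, *Cps1*) lay between 66900 and 109000 CPM in every library. *Ahr* itself was not lower under the label of the deletion, with 896 to 928 counts in WT-con libraries and 2421 to 4011 counts in those labelled ALKO-con (Ahr HKO, control diet). That is 18.3 ± 1.79 against 56.7 ± 13.4 CPM (mean ± SD, n = 3), a log2 difference of 1.63 ± 0.19 (SE; edgeR adjusted P = 0.00164), while on the ethanol diet the difference was 0.40 ± 0.21 (adjusted P = 0.316). Counts of the whole gene include transcripts that lack exon 2 and transcripts of other cells, so they do not check the deletion, and the groups are named below by their labels alone. Replicates are separate livers, and in whole liver fewer cells of a type and less RNA per cell cannot be told apart.

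Ethanol in WT livers was compared first. Of the 10 genes, 5 rose, namely *Atf3*, *Ddit3*, *Aldh1l2*, *Phgdh* and *Psat1*, and 0 fell, at an edgeR adjusted P under 0.05. Over all tested genes 9.47% were called in this comparison, with 4.84% higher and 4.63% lower. The median log2 fold change of the 10 genes was 1.83, against 0.03 over all genes. In 7 of the 10 the CPM of the 3 ethanol livers did not overlap those of the 3 control livers, which held for 32.9% of all tested genes. The 10 genes and the lists used below were chosen with earlier results of these data known. Their contrasts with all genes, here and below, are thus descriptions and not tests.

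Among the transcription factors and their regulator *Trib3*, *Atf4* stood at 58.1, 77.7 and 75.7 CPM in the WT-con livers and at 117, 90.4 and 149 CPM in the WT-EtOH livers. All ethanol livers were above all control livers, but the fold of 1.70 (log2 0.76 ± 0.19) had an adjusted P of 0.0519 and was not called. Without WT-EtOH liver 2, the lowest of the ethanol livers, the adjusted P was 0.0362. *Atf3*, a stress-induced bZIP repressor, had 0.699, 0.75 and 0.818 CPM in WT-con and 18.3, 5.07 and 5.05 CPM in WT-EtOH livers. It rose 12.5-fold (log2 3.65 ± 0.57, adjusted P = 0.0135) and WT-EtOH liver 1 stood well above the other ethanol livers. *Ddit3*, which encodes the pro-apoptotic factor CHOP, had 5.41, 6.07 and 5.42 CPM in WT-con and 24.3, 9.52 and 26 CPM in WT-EtOH livers. Its rise was 3.56-fold (log2 1.83 ± 0.35, adjusted P = 0.0226), and the control livers lay close together while the ethanol livers spread. *Trib3*, the pseudokinase that restrains ATF4 and AKT signalling, had 23.7, 8.34 and 8.5 CPM in WT-con and 93.5, 18.7 and 31.8 CPM in WT-EtOH livers. Liver 1 was the highest of each group and the groups overlapped, so the fold of 3.56 was not called (adjusted P = 0.131). It was called with the replicate block, a fit that pairs same-numbered livers (adjusted P = 0.0139). Those livers share only a number, and their deviations from the group means correlated at -0.0258 to -0.0953 here.

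Among the enzymes, *Chac1*, which degrades glutathione, was at 6.96, 15.8 and 8.05 CPM in WT-con and at 7.02, 6.58 and 12.6 CPM in WT-EtOH livers, with no separation (adjusted P = 0.744). *Asns*, asparagine synthetase, was at 1.22, 1.14 and 2.53 CPM in WT-con and at 3.44, 2.32 and 1.77 CPM in WT-EtOH livers, which overlap (adjusted P = 0.353). *Aldh1l2*, the mitochondrial 10-formyltetrahydrofolate dehydrogenase, was low throughout, at 0.218, 0.25 and 0.204 CPM in WT-con and 0.604, 0.922 and 0.987 CPM in WT-EtOH livers (10 to 14 against 32 to 62 counts). It rose 3.75-fold (log2 1.91 ± 0.40, adjusted P = 0.0302).

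The serine synthesis enzymes differed in how they moved. *Phgdh*, the first and committed enzyme of the pathway, had 7, 3 and 4 counts in WT-con and 20, 40 and 30 counts in WT-EtOH livers, or 0.096 ± 0.0511 against 0.497 ± 0.13 CPM. It rose 5.22-fold (log2 2.39 ± 0.57, adjusted P = 0.0456), from a level near the floor of 3 counts. *Psat1*, the transaminase of the second step, had 0.546, 0.536 and 0.756 CPM in WT-con and 5.08, 2.24 and 4.65 CPM in WT-EtOH livers. Its rise of 6.53-fold (log2 2.71 ± 0.36, adjusted P = 0.00787) had the smallest adjusted P of the 10 genes, with 25 to 37 counts in control and 141 to 292 in ethanol livers. *Psph*, the phosphatase of the last step, had 3.01, 4.02 and 3.37 CPM in WT-con and 4.08, 4.2 and 4.41 CPM in WT-EtOH livers. The groups did not overlap, but the fold of 1.23 was not called (adjusted P = 0.299). Of the 5 calls, *Psat1* was also called in all 6 fits that each left out 1 liver, with an adjusted P of at most 0.0431. The number of calls was 1 without WT-con liver 1, 2 or 3, and 3, 4 and 2 without WT-EtOH liver 1, 2 and 3 in turn. *Phgdh* was called in 0 of these fits (adjusted P of 0.0634 to 0.139), *Ddit3* and *Aldh1l2* in 1 each and *Atf3* in 3. *Phgdh* was also not called without the filter on low counts (adjusted P = 0.0619) or with all 12 libraries in 1 fit (0.0737), nor *Aldh1l2* by limma on log2(FPKM + 1) (0.0715). *Atf4* was called by DESeq2 (adjusted P = 0.00381), with at least 10 counts in every library (0.0448) and with all 12 libraries in 1 fit (0.0217). Limma called it on log2(FPKM + 1) (adjusted P = 0.0245) and on log2(FPKM + 0.1) (0.022). It was not called with upper-quartile scaling, without the filter on low counts, with the replicate block or after quantile normalization of FPKM.

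**Figure D1:**
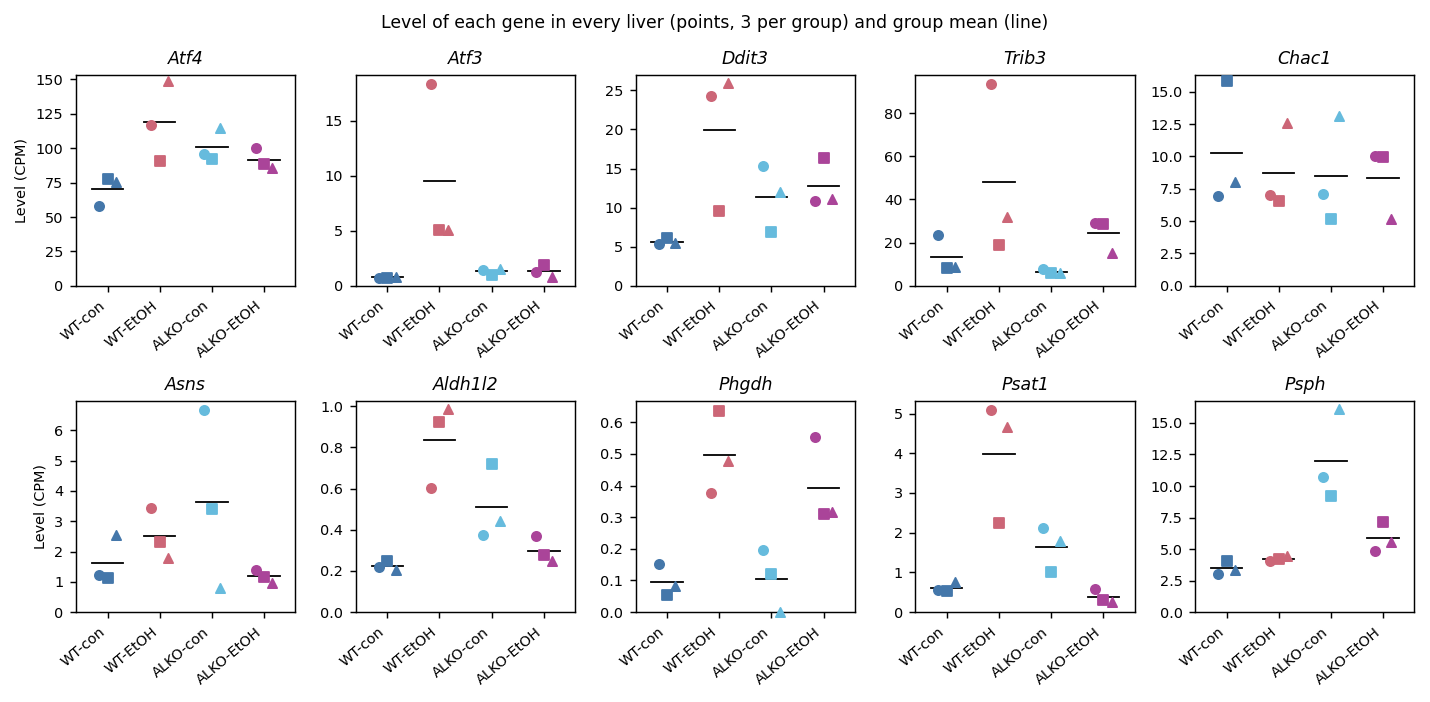
CPM of each of the 10 genes (y axis, linear, from 0) in every liver, by group (x axis; ALKO is the label's short form of Ahr HKO). Circles, squares and triangles are livers 1, 2 and 3, and the line is the group mean. *Psat1* lies between 2.24 and 5.08 CPM in WT-EtOH livers and at or below 0.581 CPM in Ahr HKO livers on ethanol.

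Ethanol in Ahr HKO livers was compared in the same way. Only *Trib3* rose, while *Psat1* and *Psph* fell, so that 3 of the 10 genes were called, against 30.8% of all tested genes in this comparison (14.9% higher and 15.9% lower). The median log2 fold change of the 10 genes was -0.08, against -0.02 over all genes. The groups did not overlap in 5 of the 10 genes, against 49.8% of all tested genes.

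*Trib3* had 7.61, 5.8 and 5.95 CPM in ALKO-con livers and 29.1, 28.7 and 15.4 CPM in ALKO-EtOH livers. All 3 ethanol livers were above the control livers, and the rise of 3.78-fold (log2 1.92 ± 0.26, adjusted P = 0.00365) was called in all 6 fits that left out a liver. *Psat1* was at 2.11, 1.01 and 1.79 CPM in ALKO-con and at 0.581, 0.309 and 0.248 CPM in ALKO-EtOH livers, or 59 to 129 against 11 to 41 counts. It fell by 2.08 ± 0.45 on the log2 scale (4.24-fold, adjusted P = 0.0137), also in all 6 fits without a liver. *Psph* had 10.7, 9.18 and 16.1 CPM in ALKO-con and 4.86, 7.13 and 5.59 CPM in ALKO-EtOH livers. It was lower in every ethanol liver, by 1.03 ± 0.25 on the log2 scale (2.05-fold, adjusted P = 0.0212), and its adjusted P was 0.0635 without ALKO-EtOH liver 1 and 0.0646 without ALKO-EtOH liver 3.

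*Atf4*, *Atf3* and *Ddit3* did not separate by diet in these livers. *Atf4* was at 95.7, 91.9 and 115 CPM in ALKO-con and at 100, 88.6 and 85.3 CPM in ALKO-EtOH livers (adjusted P = 0.439), and was called lower only after quantile normalization of FPKM (log2 -0.29, limma adjusted P = 0.049). *Atf3* was at 1.42, 0.989 and 1.57 CPM in ALKO-con and at 1.28, 1.91 and 0.789 CPM in ALKO-EtOH livers (adjusted P = 0.991). *Ddit3* was at 15.3, 6.91 and 12 CPM in ALKO-con and at 10.8, 16.3 and 11.1 CPM in ALKO-EtOH livers (adjusted P = 0.733). Livers of the diets overlapped in all 3 genes. *Chac1* was at 7.1, 5.17 and 13.1 CPM in ALKO-con and at 10, 9.94 and 5.16 CPM in ALKO-EtOH livers (adjusted P = 0.986). *Asns* was at 6.68, 3.41 and 0.807 CPM in ALKO-con and at 1.4, 1.17 and 0.969 CPM in ALKO-EtOH livers. Its ALKO-con liver 3 was as low as the ethanol livers (adjusted P = 0.098), and without that liver the log2 difference was -2.08 with an adjusted P of 0.00938. DESeq2 called *Asns* lower with all livers kept (log2 -1.61, adjusted P = 0.0272). *Aldh1l2* was at 0.376, 0.717 and 0.444 CPM in ALKO-con and at 0.369, 0.278 and 0.248 CPM in ALKO-EtOH livers, which did not overlap and were not called (adjusted P = 0.213). *Phgdh* had 12, 7 and 0 counts on the control diet and 39, 20 and 14 counts on ethanol, which did not overlap, and its log2 difference of 1.85 ± 0.88 was not called (adjusted P = 0.149).

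Genotype was compared next within the control diet. Of the 10 genes, 4 were higher in Ahr HKO livers, *Atf4*, *Ddit3*, *Psat1* and *Psph*, and 0 were lower, against 29.6% of all tested genes called in this comparison and 15.4% called higher. The median log2 difference was 0.92 over the 10 genes and 0.00 over all genes, and 7 of the 10 did not overlap, against 47.3% of all genes. *Psph* differed most, with 3.47 ± 0.509 CPM in WT-con and 12 ± 3.66 CPM in ALKO-con livers (3.47-fold, log2 1.79 ± 0.24, adjusted P = 0.0026), and was called in all 6 fits without a liver. *Psat1* was 2.67-fold higher, from 0.613 ± 0.125 to 1.64 ± 0.567 CPM (log2 1.42 ± 0.36, adjusted P = 0.023). *Ddit3* was 2.03-fold higher (log2 1.02 ± 0.27, adjusted P = 0.0273) and *Atf4* 1.43-fold higher (log2 0.52 ± 0.15, adjusted P = 0.0371). *Trib3* was lower in every ALKO-con liver than in any WT-con liver, at 6.45 ± 1.01 against 13.5 ± 8.83 CPM, and was not called (adjusted P = 0.0901). *Atf3* (log2 0.82 ± 0.29, adjusted P = 0.0717) and *Aldh1l2* (log2 1.18 ± 0.45, adjusted P = 0.0881) were above WT-con in every ALKO-con liver and were not called either, and *Asns*, *Chac1* and *Phgdh* overlapped. Alternatives did call some of them: DESeq2 called *Trib3* lower (adjusted P = 0.0225), *Atf3* was called with at least 10 counts in every library (0.0481) and by limma on 3 FPKM scales (0.0269 to 0.0495), and *Aldh1l2* with at least 10 counts in every library (0.041) and with all 12 libraries in 1 fit (0.0399). Left out singly, ALKO-con liver 2 left 5 calls, WT-con liver 3 and ALKO-con liver 3 left 2 each, and WT-con livers 1 and 2 and ALKO-con liver 1 left 1 each. The WT-con livers also entered the comparison of diets in WT mice, so both sets of values rest in part on the same 3 livers. The call of *Atf4* ended with upper-quartile scaling (adjusted P = 0.0532) and that of *Ddit3* with all 12 libraries in 1 fit (0.0527).

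Genotype was then compared within the ethanol diet, where *Psat1* alone was called among the 10 genes, against 1.1% of all tested genes (0.392% lower). *Psat1* stood at 3.99 ± 1.53 CPM in WT-EtOH and at 0.379 ± 0.177 CPM in ALKO-EtOH livers. It was 10.2-fold lower (log2 -3.36 ± 0.44, adjusted P = 0.033), and was not called without WT-EtOH liver 1 (adjusted P = 0.0964), ALKO-EtOH liver 2 (0.103) or ALKO-EtOH liver 3 (0.133). *Atf3* was at 1.28, 1.91 and 0.789 CPM in ALKO-EtOH livers, all below the lowest WT-EtOH liver at 5.05 CPM, and the log2 difference of -2.81 ± 0.60 had an adjusted P of 0.0768. DESeq2 called it (adjusted P = 1.55e-05), as did the fit of all 12 libraries (0.0159), and limma on quantile-normalized FPKM did not call *Psat1* (0.0664). *Aldh1l2* (log2 -1.48, adjusted P = 0.108) and *Asns* (log2 -1.08, adjusted P = 0.123) likewise did not overlap and were not called by edgeR, though DESeq2 called both (0.0158 and 0.0227), and *Psph* did not overlap in the other direction (log2 0.47, adjusted P = 0.203). The median log2 difference was -0.80 over the 10 genes and -0.01 over all genes, and 5 of the 10 did not overlap, against 27.9% of all genes.

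Whether ethanol acted differently in the genotypes was tested as the interaction of genotype and diet over all 12 libraries. For 6 of the 10 genes the log2 effect of ethanol was lower in Ahr HKO than in WT livers, and for 0 it was higher, against 22.3% of all tested genes called and 11.1% called in that direction. The median difference over the 10 genes was -1.49, against -0.03 over all genes. *Psat1* had a difference of -4.78 ± 0.60 (adjusted P = 0.000645), since it rose in WT and fell in Ahr HKO livers. *Atf3* followed with -3.63 ± 0.71 (adjusted P = 0.00565), *Aldh1l2* with -2.66 ± 0.55 (adjusted P = 0.0068) and *Psph* with -1.32 ± 0.30 (adjusted P = 0.0114). These 4 were called in all 12 fits that left out a liver. *Ddit3* (-1.67 ± 0.51, adjusted P = 0.0369) and *Atf4* (-0.89 ± 0.25, adjusted P = 0.0262) were called in 3 and 8 of the 12 fits. *Ddit3* kept its call only without WT-EtOH liver 2, ALKO-con liver 2 or ALKO-EtOH liver 2. *Atf4* lost its call without WT-con liver 1, ALKO-con liver 3, ALKO-EtOH liver 2 or ALKO-EtOH liver 3, with an adjusted P of at most 0.0612. The call of *Ddit3* also ended with limma on quantile-normalized FPKM (adjusted P = 0.0667) and with the replicate block in edgeR (0.0756). *Asns* had a difference of -2.23 ± 0.83 (adjusted P = 0.0764), and of -2.70 (adjusted P = 0.0102) without ALKO-con liver 3. DESeq2 called it with all livers kept (-2.24, adjusted P = 0.0247).

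Set side by side, the enzymes of serine synthesis had these effects. *Phgdh* showed log2 effects of ethanol of 2.39 in WT and 1.85 in Ahr HKO livers, and their difference of -0.52 ± 1.08 was not called (adjusted P = 0.769), which leaves a wide range at 0 to 40 counts per liver. *Psat1* moved in opposite directions by genotype. *Psph* was at its highest in Ahr HKO livers on the control diet, at 9.18 to 16.1 CPM, above every liver of the other groups, which lay between 3.01 and 7.13 CPM. *Trib3* had nearly the same log2 effect of ethanol in WT (1.83) and in Ahr HKO livers (1.92), with a difference of 0.09 ± 0.78 (adjusted P = 0.952).

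**Figure D2:**
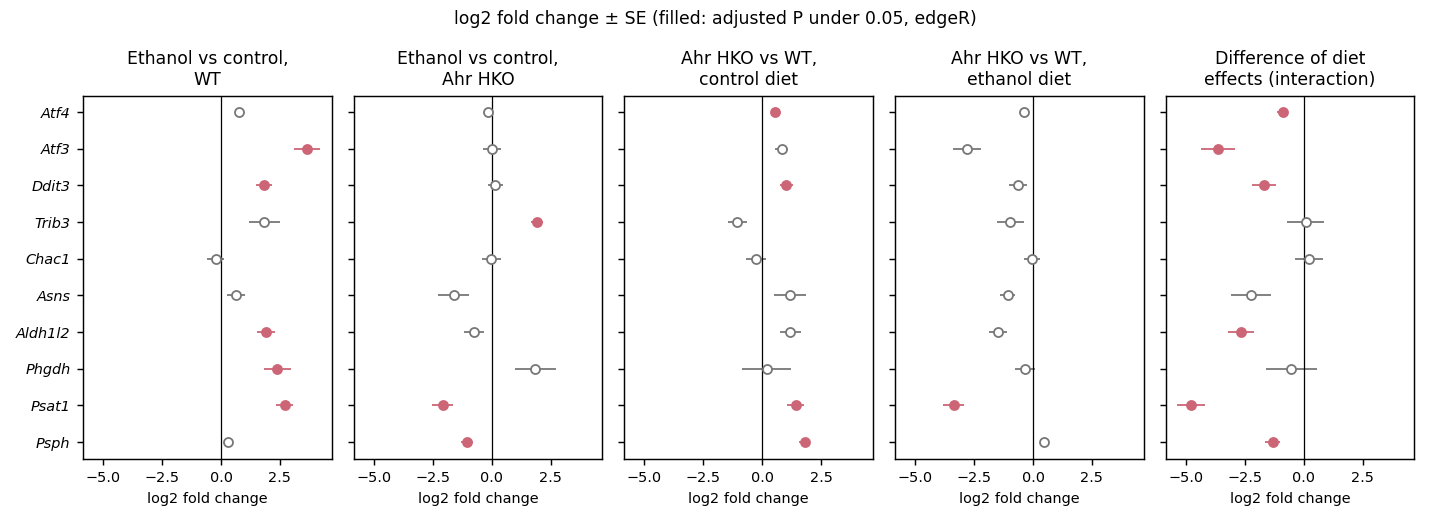
log2 fold change ± SE of the 10 genes (rows) in the 4 comparisons of groups and in the difference of the effects of ethanol, Ahr HKO minus WT (right). Filled points have an edgeR adjusted P under 0.05, and the 6 filled points of the right panel all lie below 0.

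Per length, in FPKM, *Atf4* was the most abundant of the 10 genes in every group, at 38.5 ± 5.72 in WT-con, 72.7 ± 16.3 in WT-EtOH, 55.9 ± 4.09 in ALKO-con and 48.4 ± 4.73 in ALKO-EtOH livers, and all its livers were above those of the next gene. *Aldh1l2* and *Phgdh* took the lowest ranks in WT-con (0.0345 and 0.0419 FPKM), WT-EtOH (0.148 and 0.284 FPKM) and ALKO-con livers (0.0815 and 0.0518 FPKM). Their livers overlapped in WT-con and ALKO-con and were apart in WT-EtOH. *Psat1* stood at 1.89 ± 0.683 FPKM in WT-EtOH livers, below every liver's *Psph* (2.92 ± 0.246 FPKM) and overlapping *Asns* (1.37 ± 0.407 FPKM), and at 0.149 ± 0.0707 FPKM in ALKO-EtOH livers, where it overlapped *Phgdh* (0.189 FPKM). *Psph* stood at 7.41 ± 1.87 FPKM in ALKO-con livers, overlapping *Ddit3* at 12.5 ± 4.41 FPKM and *Chac1* at 5.08 ± 2.23 FPKM. *Ddit3*, *Trib3* and *Chac1* overlapped in WT-con livers, at 6.1 to 6.23 FPKM.

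The neighbouring genes of the pathway came from 5 lists with 87 genes, of which 85 passed the filter. By comparison, 17 were called with ethanol in WT livers (15 higher, 2 lower), 21 with ethanol in Ahr HKO livers (9 higher, 12 lower) and 43 between genotypes on the control diet (35 higher in Ahr HKO, 8 lower). Between genotypes on ethanol 0 were called by edgeR, with 23 at an unadjusted P under 0.05 (10 higher, 13 lower), 12 called by DESeq2 and 2 by limma on log2(FPKM + 1). Over all genes in that comparison, DESeq2 called 1511 of 14015 and this limma fit 382 of 14038. The share of all genes at the unadjusted threshold was not counted. The interaction was called for 29, of which 22 had the lower effect in Ahr HKO livers. As shares of the 85, these were 20% (ethanol in WT), 24.7% (ethanol in Ahr HKO), 50.6% (genotype, control diet), 0% (genotype, ethanol diet) and 34.1% (interaction). Over all tested genes the shares called were 9.47%, 30.8%, 29.6%, 1.1% and 22.3% in that order.

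**Figure D3:**
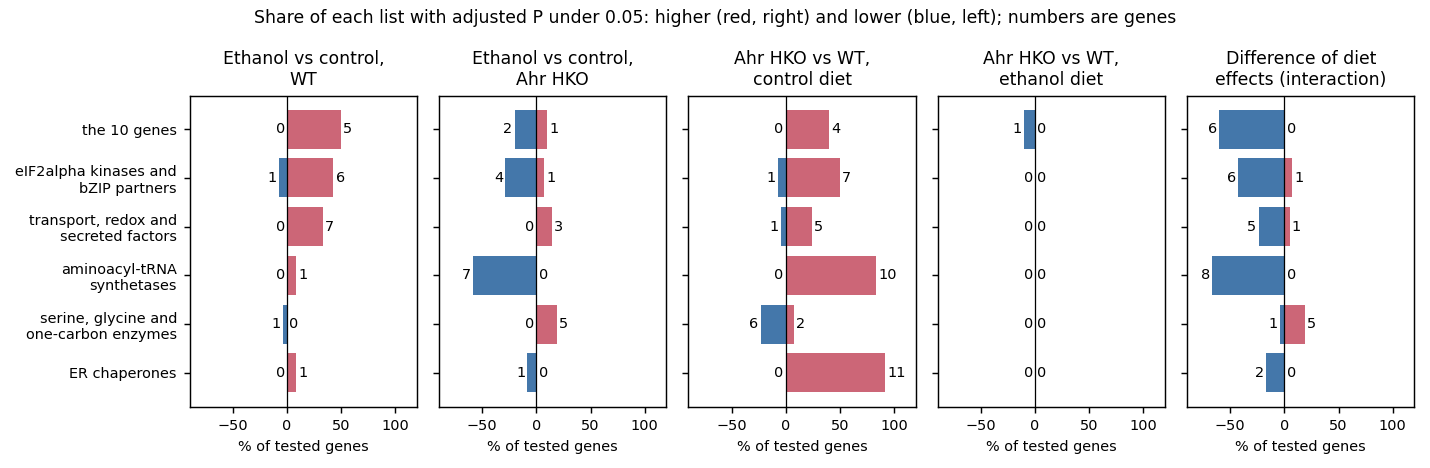
Percent of the tested genes in the 10-gene list and in each of the 5 pathway lists (rows) called higher (red, to the right) or lower (blue, to the left) at an edgeR adjusted P under 0.05, in the 4 comparisons and the interaction. The numbers beside the bars count genes, such as 11 of 12 ER chaperones higher in Ahr HKO livers on the control diet.

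The list of eIF2alpha kinases, phosphatases and bZIP partners had 14 tested genes, some upstream of ATF4 (the kinases and *Eif2s1*) and others its partners or targets. Of the list, 50% was called with ethanol in WT and 35.7% in Ahr HKO livers, against 9.47% and 30.8% of all tested genes. Between genotypes on the control diet it was 57.1% against 29.6%, and in the interaction 50% against 22.3%. With ethanol in WT livers 6 rose and 1 fell, with a median log2 fold change of 0.44. *Nupr1*, a stress-induced chromatin protein, rose 7.11-fold (0.849 to 6.05 CPM, adjusted P = 0.0102), *Jdp2* 2.53-fold (adjusted P = 0.0273) and *Atf5*, a bZIP factor translated like *Atf4*, 2.26-fold (308 to 691 CPM, adjusted P = 0.0182). *Eif2ak4*, the kinase GCN2 that senses uncharged tRNA, fell by 0.61 on the log2 scale (adjusted P = 0.0385). In Ahr HKO livers 1 rose and 4 fell with ethanol, among them *Eif2ak4* (log2 -0.88, adjusted P = 0.00665), the RNA-sensing kinase PKR, *Eif2ak2* (log2 -0.81, adjusted P = 0.00675), and *Eif2s1*, which encodes eIF2alpha itself (log2 -0.70, adjusted P = 0.00347). The heme-sensing kinase *Eif2ak1* rose (log2 0.37, adjusted P = 0.0154). On the control diet 7 of the 14 were higher in Ahr HKO livers and 1 was lower. *Eif2ak3*, the ER kinase PERK, was 2.01-fold higher (31 against 15.5 CPM, adjusted P = 0.00103), *Cebpd* 2.79-fold (adjusted P = 0.00384) and *Nupr1* 2.80-fold (adjusted P = 0.0184), and *Eif2ak1* was lower (log2 -0.31, adjusted P = 0.0459). The interaction was negative for 6 and positive for 1, led by *Nupr1* (-2.78 ± 0.53, adjusted P = 0.00497), *Atf5* (-1.13, adjusted P = 0.0303) and *Cebpg*, a partner of ATF4 (-0.92, adjusted P = 0.00312). Of these calls in WT livers, *Nupr1* held in all 6 fits without a liver, while *Jdp2* lost it without any 1 WT-con liver, *Atf5* without WT-con liver 1 or 3 and *Eif2ak4* in 5 fits (adjusted P of at most 0.125). On the control diet *Nupr1* lost it without WT-con liver 2 or ALKO-con liver 1 and *Eif2ak1* in 5 fits, and the interaction of *Atf5* was called in 5 of 12.

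The list of ATF4-responsive transport, redox and secreted factors had 21 of 23 genes tested. Of these, 33.3% were called with ethanol in WT and 14.3% in Ahr HKO livers, against 9.47% and 30.8% of all tested genes. Between genotypes on the control diet it was 28.6% against 29.6%, and in the interaction 28.6% against 22.3%. Ethanol in WT livers raised 7 and lowered 0, with a median log2 fold change of 0.91. *Gdf15*, a secreted stress hormone, had 4.37, 2.18 and 1.8 CPM in WT-con and 31.6, 18.1 and 54.5 CPM in WT-EtOH livers (12.6-fold, adjusted P = 0.00817). *Slc7a11*, the cystine transporter, had 0 counts in all WT-con livers and 15 to 30 counts in each WT-EtOH liver (adjusted P = 0.0233), which makes it at least 7.02-fold higher when each control library is set to 3 counts. It also had 0 counts in all 6 Ahr HKO livers. *Vldlr*, the very low density lipoprotein receptor, rose in both genotypes, 9.88-fold in WT (adjusted P = 0.00551) and 4.76-fold in Ahr HKO livers (adjusted P = 0.0335). In Ahr HKO livers 3 of the 21 rose and 0 fell, the others being *Cth*, the cysteine-forming gamma-lyase (154 to 301 CPM, adjusted P = 0.00474), and *Klhl24* (adjusted P = 0.0201). On the control diet 5 were higher in Ahr HKO livers and 1 was lower, with *Gdf15* 3.53-fold (adjusted P = 0.0358), the proline synthesis gene *Aldh18a1* 2.01-fold (adjusted P = 0.0481) and the alanine transaminase *Gpt2* 1.55-fold higher (adjusted P = 0.0484), and *Klhl24* 2.02-fold lower (adjusted P = 0.00306). The interaction was negative for 5 and positive for 1. *Fgf21*, a hormone of the fasted and stressed liver, led with -4.55 ± 1.19 (adjusted P = 0.0203), on 12, 4.44 and 57.4 CPM in WT-EtOH and 1.84, 0.88 and 0.631 CPM in ALKO-EtOH livers. *Gdf15* (-2.99, adjusted P = 0.0138) and the amino acid transporter heavy chain *Slc3a2* (-1.39, adjusted P = 0.0171) followed, and *Klhl24* was positive (1.20, adjusted P = 0.00464). *Gdf15* and *Vldlr* held in WT livers in all 6 fits without a liver, and *Slc7a11* in 1 (adjusted P of at most 0.0626). *Vldlr* in Ahr HKO livers and *Aldh18a1* and *Gpt2* between genotypes held in 1 of 6 fits each, *Klhl24* in Ahr HKO livers was not called without ALKO-con liver 2 or 3 or ALKO-EtOH liver 3 (adjusted P of at most 0.0587), and *Gdf15* between genotypes was not called without WT-con liver 2 or 3 or ALKO-con liver 1.

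Cytosolic aminoacyl-tRNA synthetases, which charge tRNAs and include known ATF4 targets, had 12 tested genes. Between genotypes on the control diet 83.3% were called, and with ethanol in Ahr HKO livers 58.3%, against 29.6% and 30.8% of all tested genes. With ethanol in WT livers it was 8.33% against 9.47%, and in the interaction 66.7% against 22.3%. On the control diet 10 were higher in Ahr HKO livers and 0 lower, with a median log2 difference of 0.60. *Wars* was 2.67-fold higher (19.2 to 51.1 CPM, adjusted P = 0.00162), *Yars* 1.82-fold (adjusted P = 0.0016) and *Iars* 1.72-fold (adjusted P = 0.00178). With ethanol in Ahr HKO livers 7 fell and 0 rose, with a median of -0.61. *Lars* fell from 43 to 20.2 CPM (log2 -1.09 ± 0.08, adjusted P = 0.00127), *Wars* from 51.1 to 23.7 CPM (adjusted P = 0.00873) and *Cars* from 38.2 to 23.9 CPM (adjusted P = 0.0102). In WT livers only *Sars*, the enzyme that charges tRNA with serine, was called with ethanol, 1.55-fold higher (adjusted P = 0.0411), and it was called in 1 of 6 fits without a liver, where the other synthetases named held in all. The interaction was negative for 8 of 12, with *Wars* at -1.05, *Lars* at -1.01 and *Yars* at -0.96 (adjusted P = 0.00922, 0.00069 and 0.00322).

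ER chaperones and genes of ER-associated degradation had 12 tested genes, and 11 were higher in Ahr HKO livers on the control diet, with a median log2 difference of 1.66. *Creld2* was 10.4-fold higher (32.3 to 335 CPM, adjusted P = 0.00368), *Hspa5*, which encodes the chaperone BiP, 5.11-fold (398 to 2030 CPM, adjusted P = 0.00289) and *Hyou1* 5.10-fold (adjusted P = 0.00223). Every ALKO-con liver was above every WT-con liver for these genes. Ethanol raised 1 of the 12 in WT livers, *Dnajb9* (2.36-fold, adjusted P = 0.0268), and lowered 1 in Ahr HKO livers, *Xbp1*, the transcription factor of the unfolded protein response (406 to 165 CPM, adjusted P = 0.00979). The interaction was negative for *Dnajb9* (-1.64, adjusted P = 0.0112) and *Edem1* (-0.64, adjusted P = 0.0399). Ethanol thus called 8.33% of this list in each genotype, against 9.47% (WT) and 30.8% (Ahr HKO) of all tested genes. Between genotypes on the control diet it was 91.7% against 29.6%, and in the interaction 16.7% against 22.3%. *Dnajb9* in WT livers was called in 1 of 6 and *Edem1* in 2 of 12 fits without a liver.

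Serine and glycine one-carbon enzymes, which use what the 3 synthesis steps make, had 26 tested genes. On the control diet 6 of them were lower in Ahr HKO livers and 2 were higher, or 30.8% of the list called against 29.6% of all tested genes. *Shmt2*, the mitochondrial serine hydroxymethyltransferase, was 1.73-fold lower (252 to 145 CPM, adjusted P = 0.00231), *Amt* of the glycine cleavage system 1.80-fold (adjusted P = 0.00573) and *Mthfd1* 1.63-fold lower (adjusted P = 0.0049). *Sdsl*, a serine dehydratase-like enzyme, was 2.43-fold higher (adjusted P = 0.00908) and the mitochondrial folate enzyme *Mthfd2*, an ATF4 target, 1.99-fold higher (adjusted P = 0.0256). With ethanol in Ahr HKO livers 5 rose and 0 fell, led by *Gls2* (202 to 416 CPM, adjusted P = 0.0116), *Shmt2* (145 to 260 CPM, adjusted P = 0.00573) and *Gnmt* (1270 to 2240 CPM, adjusted P = 0.0348). In WT livers only *Agxt*, which converts glyoxylate to glycine, was called with ethanol, and it fell by 0.76 on the log2 scale (277 to 163 CPM, adjusted P = 0.0469). Ethanol thus called 3.85% of the list in WT and 19.2% in Ahr HKO livers, against 9.47% and 30.8% of all tested genes. The interaction was called for 23.1% of the list, against 22.3% of all tested genes. It was positive for 5, among them *Amt* (1.18), *Shmt2* (1.14) and *Gls2* (0.95; adjusted P = 0.0368, 0.00758 and 0.043), and negative for 1, *Mthfd2* (-1.44, adjusted P = 0.0283). *Agxt* was called in 1 and *Gnmt* and *Mthfd2* (between genotypes) in 2 of 6 fits without a liver, and the interactions of *Amt*, *Gls2* and *Mthfd2* in 4, 3 and 7 of 12.

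**Figure D4:**
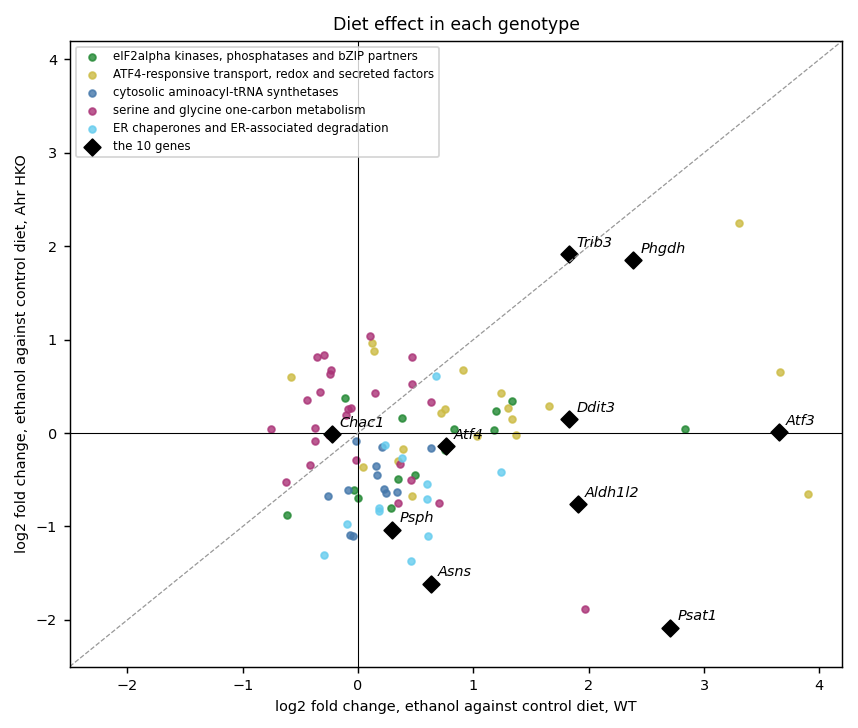
log2 fold change with ethanol in WT livers (x axis) against that in Ahr HKO livers (y axis) for the 10 genes (black diamonds) and 84 tested genes of the 5 pathway lists (coloured points). *Slc7a11*, at 0 counts in all Ahr HKO livers, is not drawn, and the dashed line marks equal effects. *Trib3* lies near the line at 1.83 and 1.92, and *Psat1* lies far below it at 2.71 and -2.08.

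Some markers of other liver cells also changed. Of all tested genes, 9.47% were called with ethanol in WT and 30.8% in Ahr HKO livers, and 22.3% in the interaction. In Ahr HKO livers, 7 of 9 Kupffer cell and leukocyte markers fell with ethanol and 0 rose, with summed levels of 261 to 754 CPM on the control diet and 157 to 199 CPM on ethanol, and 5 of 9 had a negative interaction. Sinusoidal endothelial markers fell for 2 of 5 (sums of 208 to 231 against 146 to 164 CPM), and 3 of 5 proliferation markers fell and 1 rose (sums of 3.63 to 5.72 against 2.69 to 5.96 CPM). Of the 6 stellate cell markers 3 rose with ethanol in WT livers (sums of 214 to 277 against 316 to 362 CPM) and 2 in Ahr HKO livers (209 to 222 against 244 to 286 CPM), and 0 had a called interaction (0 also at an unadjusted P under 0.05, edgeR). The calls with ethanol were 50% of this list in WT livers and 33.3% in Ahr HKO livers, the latter near the share of all genes. Between genotypes on the control diet, where most chaperones and synthetases as well as *Psat1* and *Psph* were higher, single markers of several cells also differed. *Epcam* of cholangiocytes was 4.85-fold higher in Ahr HKO livers (adjusted P = 0.00742), *S100a8* of leukocytes 3.21-fold (0.00347), *Pecam1* of endothelium 1.56-fold (0.023), and the hepatocyte markers *Tat* 3.29-fold (0.0213) and *Hnf4a* 1.96-fold (0.00331). The B cell marker *Cd79a* was 3.33-fold lower (adjusted P = 0.0171) and *Colec11* of stellate cells 1.55-fold lower (0.00574). Called or not, the log2 difference was positive for 4 of 6 hepatocyte, 8 of 9 Kupffer cell and leukocyte and 1 of 6 stellate markers. It was positive for 3 of 5 endothelial, 3 of 5 cholangiocyte and 0 of 5 proliferation markers. By list, 2 of 6 hepatocyte, 2 of 9 Kupffer cell and leukocyte, 1 of 6 stellate, 1 of 5 endothelial, 1 of 5 cholangiocyte and 0 of 5 proliferation markers were called there (proliferation 0 also at an unadjusted P under 0.05, edgeR). These lists thus had 0 to 33.3% of their markers called, against 29.6% of all tested genes. Cholangiocyte marker sums reached 476 CPM in 1 ALKO-con liver and lay between 37.1 and 180 CPM in the 11 others. These sums were mostly *Spp1*, with up to 28305 counts in a library, against at most 555 for *Sox9* and fewer for *Epcam*, *Krt19* and *Krt7*. Between genotypes on the control diet *Spp1* (log2 1.63), *Krt19* (-0.03) and *Krt7* (0.26) were not called (edgeR adjusted P = 0.185, 0.97 and 0.698). The part of these cells in the levels of the 10 genes and the pathway lists was not tested. Of the 6 pancreatic acinar markers, *Cpa1*, *Pnlip*, *Prss2* and *Cel* had 0 counts in every library and *Ctrb1* at most 2. *Cela2a* reached 76 counts and separated WT-con livers from others, 14.3-fold lower with ethanol in WT (1.01 against 0.0696 CPM, adjusted P = 0.0298) and 7.10-fold lower in Ahr HKO livers on the control diet (0.139 CPM, adjusted P = 0.00568).

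The tested genes whose CPM ran closest to each called gene over the 12 livers were found by the root mean square difference of centred log2(CPM + 0.5), in log2 units. They were *Zpr1*, *Gss* and *Dnajc25* for *Atf4* (0.152 to 0.163), *Agpat9*, *Cd63* and *Htatip2* for *Atf3* (0.343 to 0.523), *Cyp1a1*, *Jun* and *Zpr1* for *Ddit3* (0.372 to 0.395) and *Hrk*, *Ces1g* and *9130409I23Rik* for *Trib3* (0.53 to 0.57). For the enzymes they were *Arhgef2*, *Apoa4* and *Gm19619* for *Psat1* (0.348 to 0.505), *Sebox*, *Arfip2* and *Sec23b* for *Psph* (0.12 to 0.17), *Tceal1*, *Xpot* and *Gm14295* for *Aldh1l2* (0.194 to 0.198) and *Col23a1*, *Kmt5a* and *Vat1* for *Phgdh* (0.154 to 0.163). On this scale the members ranged over 1.08 (*Aldh1l2*) to 3.97 log2 units (*Atf3*), and distances of genes with a narrow range are small by construction. The added 0.5 CPM itself narrows the range of genes with low levels. These include *Aldh1l2* (0.204 to 0.987 CPM) and *Phgdh* (0 to 0.636 CPM).

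Gene positions limit the reading of 3 of the genes. *Ddit3* (GRCm38 chr10:127290793-127296291) overlaps *Mbd6* and *Mars*, *Psph* (chr5:129765558-129787443) overlaps *Cct6a*, and *Aldh1l2* (chr10:83487447-83534146) overlaps *Gm51778*, which is not in the table. The library kit keeps the strand, but whether the counting used it is not given in the sources used here, so reads of overlapping genes may not be told apart. These overlapping genes were more abundant, so that a small fold of theirs is a large step in CPM. On the control diet, where *Psph* went from 3.47 to 12 CPM, *Cct6a* was 70.6 CPM in WT and 93.3 CPM in Ahr HKO livers (log2 0.41, adjusted P = 0.0162). *Ddit3* went there from 5.63 to 11.4 CPM and *Mars* from 60.3 to 73.3 CPM (log2 0.28, adjusted P = 0.0396). With ethanol in WT livers, where *Ddit3* rose to 19.9 CPM, *Mbd6* and *Mars* had log2 fold changes of 0.02 and -0.02, and in Ahr HKO livers *Mbd6* rose from 42.5 to 57.8 CPM (log2 0.45, adjusted P = 0.0327). Whether reads of these genes entered the counts of *Ddit3* and *Psph* was not tested. The other genes overlap no gene of the RefSeq annotation, among them *Psat1* (chr19:15905123-15925059), *Phgdh* (chr3:98313171-98339969), *Atf4* (chr15:80255184-80257545), *Atf3* (chr1:191170296-191183333) and *Trib3* (chr2:152337425-152344060).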

How the data were processed

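Total RNA of 12 mouse livers (RNA integrity number of at least 7) was made into stranded mRNA libraries. The submitters' processing notes name FastQC 0.11.7, Trimmomatic 0.38, HISAT2 2.1.0, Bowtie2 2.3.4.1, StringTie 1.3.4d and the mouse build mm10 (GRCm38). The authors deposited raw read counts per gene, without normalization, beside FPKM, scaled by the authors to gene length and library size, and TPM. The deposited TPM values were used only for their sums, 924962 to 987569 per library, and how strand was used in the counting is not given in the sources used here. Groups came from the labels, with 3 livers each, and 0 of 66 pairs of libraries had identical counts.

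Counts were tested with the quasi-likelihood test of edgeR 4.0.16 (R 4.3.3; TMM factors of 0.925 to 1.16; filterByExpr over the 4 groups). Each pair of groups was fitted on its own 6 libraries and the interaction on all 12, with Benjamini-Hochberg adjustment over all 14038 tested genes. A gene was called at an adjusted P under 0.05. SE is the size of the log2 fold change divided by the square root of F. DESeq2 1.42.0 and limma 3.58.1 on log2(FPKM + 1) served as alternatives, and scripts were tested on simulated counts. A count of 3 set the floor, which covers counting error only.

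The members and lists were chosen with earlier results of these data known. Named pathway genes are, per list and comparison, the 3 called genes with the largest fold change in each direction, beside *Ahr*. Promoter sequences are from RefSeq (GRCm38.p6), and positions from the RefSeq annotation of GRCm38. Sequence tables of proteins were not used here.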

Additional observations from a re-analysis of the deposited data

Results flagged for a closer look

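For 6 of the 10 genes the effect of ethanol differed between the genotypes by the interaction term of edgeR, with a lower log2 effect in Ahr HKO than in WT livers. Over all tested genes 22.3% were called in the interaction, and 11.1% in that direction. The difference of the effects was -4.78 for *Psat1*, -3.63 for *Atf3*, -2.66 for *Aldh1l2*, -1.67 for *Ddit3*, -1.32 for *Psph* and -0.89 for *Atf4*. Of these, *Psat1* alone was called in both genotypes and in opposite directions, at 2.71 in WT and -2.08 in Ahr HKO livers. *Psph* was called in Ahr HKO livers alone, while *Atf3*, *Aldh1l2* and *Ddit3* were called in WT livers alone. *Atf4* was called with ethanol in neither genotype by edgeR. Without 1 liver at a time, the interactions of *Ddit3* and *Atf4* were called in 3 and 8 of 12 fits, and the others in all 12.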

How the results depend on the processing

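The 10 genes gave 5, 3, 4, 1 and 6 calls for ethanol in WT, ethanol in Ahr HKO, genotype on the control diet, genotype on ethanol and the interaction, and the 85 pathway genes 17, 21, 43, 0 and 29. For ethanol in WT livers, the pathway genes called became 28 with DESeq2, 27 with limma on log2(FPKM + 1), 29 with log2(FPKM + 0.1) and 11 after quantile normalization. For ethanol in Ahr HKO livers, 5 of the 10 genes were called after quantile normalization. For genotype on ethanol, the 10 genes gave 4 calls with DESeq2, 2 with all 12 libraries in 1 fit, 2 with log2(FPKM + 0.1) and 0 after quantile normalization. The pathway genes gave 12 with DESeq2, 1 with upper-quartile scaling, 2 with all 12 libraries in 1 fit, and 2 with limma on log2(FPKM + 1) and on log2(FPKM + 0.1). The cause of these shifts was not tested. FPKM without quantile normalization moved the median log2 value of all genes, at log2(FPKM + 0.1) to 0.16 for ethanol in WT, to -0.21 for genotype on ethanol and to -0.24 for the interaction. With it the split of all calls into higher and lower went from 679 and 650 to 1498 and 385, from 100 and 55 to 71 and 311, and from 1576 and 1561 to 806 and 2640 on log2(FPKM + 1), and DESeq2 gave 714 and 797 for genotype on ethanol. With all livers kept, the number of all genes called moved by more than 1.5 times for ethanol in WT (1329, against 2335 with DESeq2 and 517 with the replicate block) and for genotype on ethanol (155, against 1511 with DESeq2, 575 with all 12 libraries in 1 fit, 245 with the replicate block, 382 and 477 with limma on log2(FPKM + 1) and log2(FPKM + 0.1), and 86 after quantile normalization).

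Livers share only a number across groups: deviations of same-numbered livers from their group means correlated at -0.136 to 0.307, above 0.1 for 2 of 12 pairs. With the replicate block, calls among the 10 genes went from 5 to 3 (ethanol in WT, where *Ddit3*, *Aldh1l2* and *Phgdh* lost the call and *Trib3* gained it) and from 4 to 2 (genotype on the control diet), and among pathway genes from 17 to 7 (ethanol in WT) and from 0 to 1 (genotype on ethanol). Without 1 liver at a time, the 10 genes gave 1 to 4, 2 to 4, 1 to 5, 0 to 1 and 4 to 6 calls in the order above, and the pathway genes 4 to 15, 16 to 24, 30 to 43, 0 to 1 and 20 to 35. Over all tested genes, calls went from 1329 to between 367 and 1026 (ethanol in WT), from 4322 to between 2588 and 3792 (ethanol in Ahr HKO), from 4161 to between 2630 and 3748 (genotype on the control diet), from 155 to between 7 and 189 (genotype on ethanol; 7 without ALKO-EtOH liver 3) and from 3137 to between 2267 and 3084 (interaction), so the shares of all genes given beside the members move with single livers too. These fits had fewer samples, and the lowest pathway counts for ethanol in WT, 4, 5 and 6, came without WT-con liver 1, 2 and 3.

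Signs turned only for values that were never called. For ethanol in Ahr HKO livers, *Chac1* (-0.01) was 0.00 with upper-quartile scaling and without the filter on low counts, and 0.06 with the replicate block and after quantile normalization. *Atf3* (0.01) was -0.05 with the block, -0.03 on log2(FPKM + 1) and -0.11 on log2(FPKM + 0.1). *Phgdh* (0.19) was -0.09 between genotypes on the control diet with the block. In the interaction, *Trib3* (0.09) was -0.15 and -0.07, and *Chac1* (0.23) 0.00 and -0.01, on log2(FPKM + 1) and log2(FPKM + 0.1). Without 1 liver at a time, *Chac1* ranged from -0.58 to 0.23, -0.27 to 0.46, -0.75 to 0.17, -0.2 to 0.3 and -0.23 to 0.69 in the order above. The same ranges were -0.35 to 0.26 for *Atf3* and -0.11 to 0.43 for *Ddit3* (ethanol in Ahr HKO), -0.58 to 0.73 for *Phgdh* (genotype on the control diet), and -0.59 to 1.01 for *Trib3* and -1.06 to 0.25 for *Phgdh* (interaction). Depth limits *Phgdh*, *Aldh1l2* and *Slc7a11*, whose counts were near the floor in some livers.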
